A study of Mus musculus with 6 samples.

Results

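The genes described here are 40 genes of mitosis and of the G2 phase before it, listed by symbol: mitotic cyclins and kinases, kinetochore and spindle proteins, cytokinesis proteins and chromosome structure proteins. All 40 were among the 53735 genes of the table, and all 40 passed the minimum mean of 10 normalized counts that left 15229 genes for testing. A normalized count is a gene's read count divided by a size factor of its library. The genes were measured by poly(A) RNA sequencing of primary cultures of endothelial cells from mouse lung. For Zmpste24, 2 libraries carry the label wild type and 4 the label knockout. Zmpste24 encodes the protease that trims prelamin A to mature lamin A, and mice without it are used to model Hutchinson-Gilford progeria.

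Cells of both groups were untreated and unpassaged, were isolated with beads against CD31 and ICAM2, and were grown to confluence. The sources used here give no age, sex or strain of the mice and no promoter or exon for the knockout allele. They do not tie libraries to separate animals, so the p-values speak only of variation among these 6 libraries, some of which may be technical. The labels name 2 cohorts of mice without saying which library belongs to which. Libraries are named below as labelled, wild type 1 and 2 and knockout 1 to 4.

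As background, a cell that has copied its DNA accumulates cyclin B bound to the kinase Cdk1, whose activation starts mitosis. The chromosomes condense, kinetochores attach them to spindle microtubules, and a checkpoint holds the cell until every attachment is made. The anaphase-promoting complex then marks cyclins and securin for destruction, the sister chromatids part, and the cell divides at the midzone. Transcripts of these genes build up together in G2, under the MuvB complex with B-Myb and FoxM1, and are low in cells that do not divide. Confluent endothelial cells are known for a low rate of division. RNA from a whole culture cannot tell fewer dividing cells from less RNA per dividing cell.

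Promoters of such genes are known for 2 short elements, the CHR (cell cycle genes homology region), which the MuvB complex binds, and CCAAT boxes, which NF-Y binds. RefSeq promoters of build GRCm38.p6, running from 250 bases before to 50 after an annotated start, were matched by symbol for 33 of the 40 genes; Tpx2, Cdc25c, Aurkb, Ccna2, Foxm1, Esco2 and Kif20a were not matched. The CHR was searched as TTTGAA or TTCGAA and the CCAAT box as CCAAT, on both strands; TTCGAA reads the same on both and was counted once, and matches of different elements may overlap. A CHR was present in 26 of the 33 genes, or 29 of their 37 promoters (78.4%), against 19.2% of all 32851 promoters. CCAAT stood in 26 of the 33 genes, or 30 of 37 promoters (81.1%), against 37.4% of all. Both elements stood in 26 of 37 promoters (70.3%), against 7.52% of all. As a contrast, TATAAA was in 1 of 37 promoters (2.70%), against 13.6% of all, and any of 4 letter strings of the E2F site (TTTCGCGC, TTTGGCGC, TTTCCCGC, TTTGCCGC) was in 1 of 37 (2.70%), against 2.26%. A match is a string of letters and not a measured binding site, and no promoter activity was measured.

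The 8 promoters below are shown because they belong to the genes with the lowest and highest fitted differences between the genotypes and to abundant genes that carry both elements. Each runs 5′ to 3′ on the gene's strand, from 180 bases before the annotated start to the 30th base from it, with whole CHR elements and CCAAT boxes in capitals on either strand.
Cdk1: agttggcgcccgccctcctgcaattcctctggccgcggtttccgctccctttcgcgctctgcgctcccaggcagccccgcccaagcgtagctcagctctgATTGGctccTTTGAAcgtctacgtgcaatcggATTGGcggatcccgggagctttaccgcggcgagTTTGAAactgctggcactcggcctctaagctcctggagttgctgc
Top2a: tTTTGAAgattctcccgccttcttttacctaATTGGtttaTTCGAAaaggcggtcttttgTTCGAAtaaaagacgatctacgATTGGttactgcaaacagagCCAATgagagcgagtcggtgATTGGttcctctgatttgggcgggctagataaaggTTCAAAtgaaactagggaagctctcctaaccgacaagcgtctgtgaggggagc
Mki67: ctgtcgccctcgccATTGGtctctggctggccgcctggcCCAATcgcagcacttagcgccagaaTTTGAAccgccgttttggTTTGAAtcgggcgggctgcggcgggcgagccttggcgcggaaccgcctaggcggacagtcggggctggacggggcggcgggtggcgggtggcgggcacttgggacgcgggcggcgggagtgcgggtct
Prc1: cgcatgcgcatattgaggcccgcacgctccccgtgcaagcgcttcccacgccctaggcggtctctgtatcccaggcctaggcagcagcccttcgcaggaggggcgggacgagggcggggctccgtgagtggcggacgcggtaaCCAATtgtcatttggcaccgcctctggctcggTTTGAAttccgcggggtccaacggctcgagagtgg
Kif23: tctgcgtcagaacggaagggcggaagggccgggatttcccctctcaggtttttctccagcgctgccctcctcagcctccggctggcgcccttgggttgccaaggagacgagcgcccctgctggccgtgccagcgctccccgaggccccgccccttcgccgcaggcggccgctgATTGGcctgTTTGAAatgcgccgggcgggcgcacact
Psrc1: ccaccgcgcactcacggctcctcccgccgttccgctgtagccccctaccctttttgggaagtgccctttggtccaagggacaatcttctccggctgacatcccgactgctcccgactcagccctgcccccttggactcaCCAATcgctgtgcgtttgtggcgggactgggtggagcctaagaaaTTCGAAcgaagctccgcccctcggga
Gtse1: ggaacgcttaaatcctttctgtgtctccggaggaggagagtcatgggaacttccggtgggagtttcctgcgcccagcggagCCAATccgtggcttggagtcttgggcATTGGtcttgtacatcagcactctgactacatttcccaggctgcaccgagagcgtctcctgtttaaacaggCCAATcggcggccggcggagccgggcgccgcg
Nuf2: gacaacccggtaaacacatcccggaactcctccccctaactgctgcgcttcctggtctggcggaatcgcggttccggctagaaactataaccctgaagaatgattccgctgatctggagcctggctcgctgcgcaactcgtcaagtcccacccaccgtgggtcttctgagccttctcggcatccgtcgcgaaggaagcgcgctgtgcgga
These windows are chr10:69352883-69353092 (Cdk1, minus strand), chr11:99024160-99024369 (Top2a, minus strand), chr7:135716350-135716559 (Mki67, minus strand), chr7:80294271-80294480 (Prc1, plus strand), chr9:61946770-61946979 (Kif23, minus strand), chr3:108383624-108383833 (Psrc1, plus strand), chr15:85859527-85859736 (Gtse1, plus strand) and chr1:169531435-169531644 (Nuf2, minus strand). Top2a had 4 CHR elements and 4 CCAAT boxes in its window, while Nuf2 had neither, and Gtse1 had 3 CCAAT boxes and no CHR. In Kif23 the CCAAT box ends 3 bases before the start and the CHR begins 2 bases after it. Nuf2, Birc5, Melk and Nusap1 were the 4 genes with neither element in the 300 bases, and their values are given with the rest below.

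**Figure D1:**
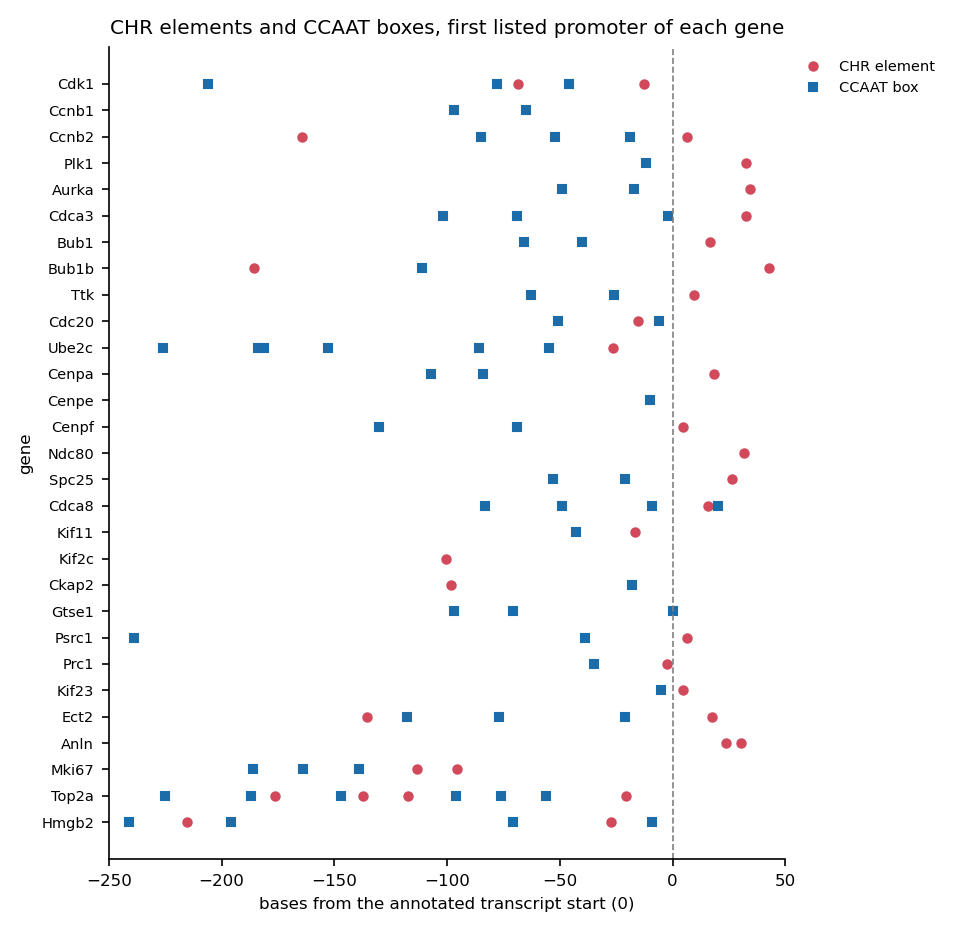
Position of each CHR element (circles) and CCAAT box (squares), in bases from the annotated start at 0, in the first listed promoter of the 29 genes that had either. The 63 CCAAT boxes had a median position of -69.0 and the 36 CHR elements one of -7.50, so most CHR elements lie at or near the start and most boxes upstream.

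Zmpste24 itself was present in every library, at 5503 normalized counts in wild type 1, 4148 in wild type 2, then 5079, 3764, 3599 and 3720.4 in knockouts 1 to 4. The 4 libraries labelled knockout were -0.12 to -0.20 on the log2 scale from the wild type library of their set, a gene-level count that does not show which exons were read, so it checks the labels only weakly. The libraries fell into 2 sets by expression of all tested genes: wild type 1 with knockout 1, and wild type 2 with knockout 2, 3 and 4. The first principal component, which parts these sets, held 77.3% of the variance. The sets were found from the data, and whether they are the 2 cohorts is not known, so each comparison was fitted with genotype alone and again with the library set as a term. Recovered reads per library ran from 32699024 to 45613685.

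Markers were checked against the label of endothelial cells, whose stated purity is over 99%. All 10 endothelial markers (Pecam1, Cdh5, Kdr and others) were detected in all libraries, with a summed level per kilobase of exon of 8497 in knockout 4 to 38524 in wild type 1. The 8 fibroblast markers (Col1a1, Col3a1, Pdgfra and others) were also all detected, at a summed 45998 to 52873 per kilobase, above the endothelial sum in each library. The 10 smooth muscle and pericyte markers, at 27376 to 105178 per kilobase, were also above it in each library. Leukocyte markers (12 of 12 detected) summed to 4251 normalized counts in knockout 1 and 5246 in wild type 1, against 29244 to 46182 in the second set. Per kilobase the leukocyte sum was 2448 in knockout 1 and 3031 in wild type 1. In the second set it was 19912 to 31092, above the endothelial sum of each library. Sums over different marker lists do not measure shares of cells. Of 7 epithelial markers, 3 reached a mean of 10, and Sftpc, Sftpb, Scgb1a1 and Krt5 were at 0 in at least 1 library.

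Between the genotypes no mitotic gene passed the test. The libraries labelled knockout held both extremes of the list's median. The median of the 40 genes came to 910.3 normalized counts in wild type 1 and 946 in wild type 2, while knockout 1 to 4 had 657, 491, 738 and 1369. The 2 wild type libraries thus lay between knockout 3 and knockout 4, and the groups overlapped for each of the 40 genes; over all genes tested, 4.68% had groups that did not overlap. Knockout 4 was the highest of the 6 libraries for 38 of the 40 genes, against 17.9% of all genes tested. The lowest library was knockout 2 for 31 of them and knockout 1 for the other 9. In the second set the order knockout 2, knockout 3, wild type 2, knockout 4 held for 34 of the 40, against 12.8% of all genes. That is also the order of the medians of these same genes, so its share is a description and not a test.

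With genotype alone, the median log2 difference (knockout minus wild type) of the 40 genes was -0.28, beside 0.00 for all genes tested, and 38 of the 40 estimates were below 0, against a background of 49.8%. Once the library set was a term, the median was -0.34 and all 40 were below 0, against 50.7% of all genes. These genes moved together within a library, with all 40 below wild type 2 in knockout 2 and all 40 above it in knockout 4. The counts of signs are therefore not counts of independent observations. No gene of the 40 was called by limma at an adjusted p of 0.05 in either fit, and none had an unadjusted p under 0.05; the lowest was 0.17 for Cenpa with genotype alone. The background was low too: limma called 0.00657% of all genes with genotype alone and 0.00657% with the set term, with unadjusted p under 0.05 in 0.939% and 3.51%. On the recovered reads, edgeR called 0.00657% and DESeq2 0.046% of all genes with genotype alone, 0.0131% and 0.328% with the set term, and none of the 40 in any of these. The adjusted p of every one of the 40 was 1.00 with genotype alone and 0.999 with the set term (limma, Benjamini-Hochberg over 15229 genes).

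A p that misses the threshold does not show equal levels. The 95% interval of the fitted difference spanned 0 for each of the 40 genes with the set term, with lower bounds from -1.83 to -0.49 and upper bounds from 0.34 to 1.12. Single libraries set the median: without knockout 4 it was -0.60 (40 of 40 below 0, and 12 of 40 with an unadjusted p under 0.05, against 0.827% of all genes), without knockout 2 it was -0.07 (30 of 40 below 0), and without knockout 1 it was -0.17 (32 of 40 below 0). In the limma fits with the set term it was -0.59 without knockout 4 and -0.15 without knockout 2. In the former, 21 of 40 had an unadjusted p under 0.05 against 6.83% of all genes. None of the 40 was called in these fits. The 2 set-term fits were chosen after the data were seen. All 40 genes were above wild type 2 in knockout 4, so counts of small p without that library are not an independent test. The edgeR and DESeq2 medians with genotype alone, which compare group means of reads, were -0.14 and -0.15.

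**Figure D2:**
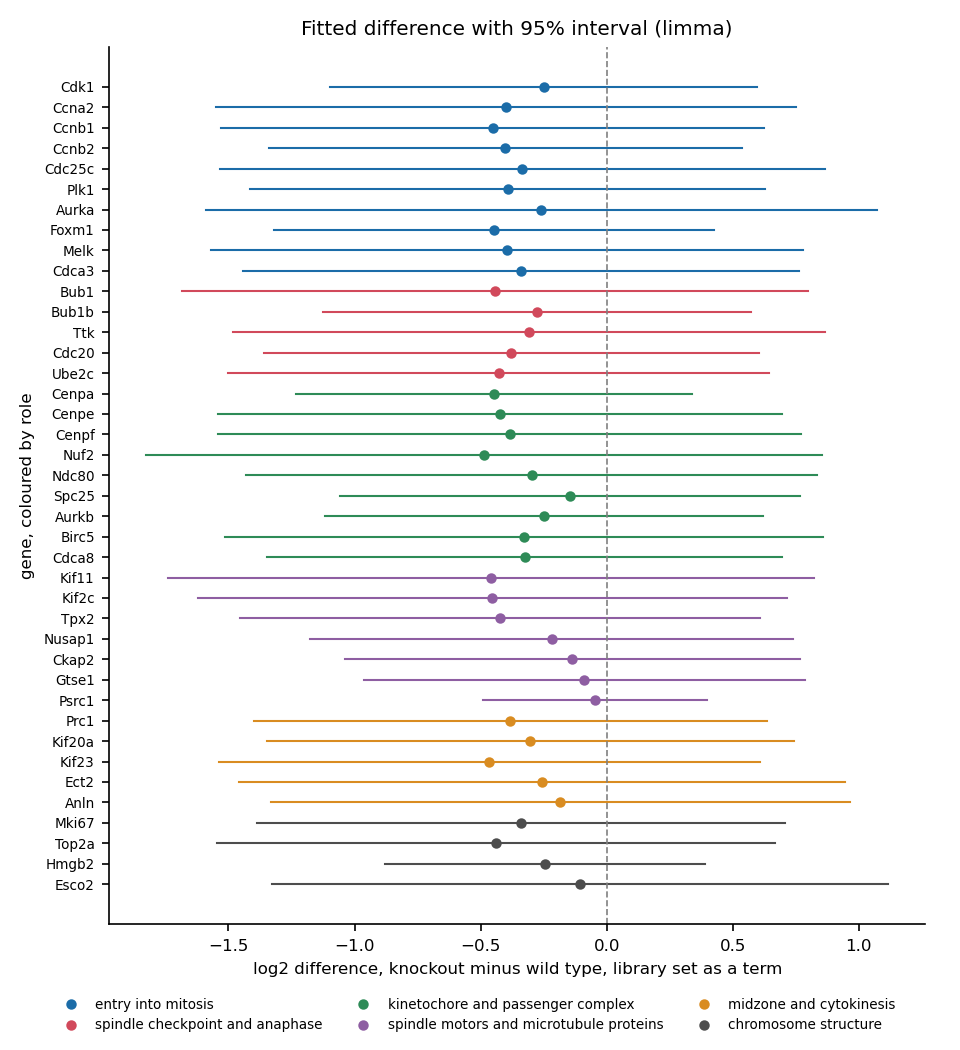
Fitted log2 difference (points) with its 95% interval (lines) for the 40 genes, library set as a term, coloured by role. All 40 points lie below 0 and all 40 intervals span it; Psrc1 has the narrowest and Nuf2 reaches lowest.

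Set beside the wild type library of its own set, each library labelled knockout gave a different picture, with 1 library on each side and therefore no test. Knockout 1 had a median log2 difference of -0.59 from wild type 1, and 38 of the 40 genes were below it, against a background of 53.6%. Some marker sums differed as well. In knockout 1 the endothelial sum was -0.76 on the log2 scale from wild type 1 (101933 against 172168 normalized counts). The mesothelial sum (5 of 5 detected) was 1.21 above it (61241 against 26485). The fibroblast, smooth muscle and pericyte, and leukocyte sums were -0.03, -0.15 and -0.30 from wild type 1. The part of these sums in the mitotic values was not tested. Knockout 2, 3 and 4 share wild type 2 as their reference, so their differences are not independent. Knockout 2 had a median of -0.92 with 40 of 40 genes lower, against 48.1% of all genes. Knockout 3 had -0.31 with 34 of 40 lower, against 49.8%. Knockout 4 had 0.56 with 40 of 40 genes higher, against 50.1%. The medians over all genes tested were -0.02, 0.01, 0.00 and 0.00 in the same order.

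**Figure D3:**
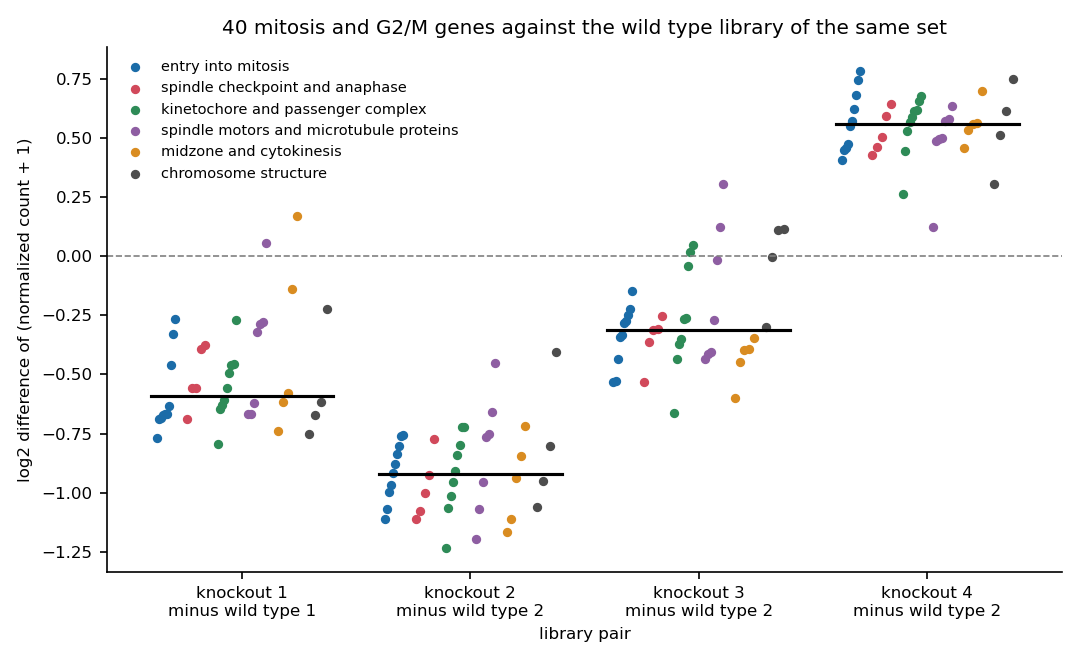
Log2 difference of each of the 40 genes (points, coloured by role) between a library labelled knockout and the wild type library of its set, with the median as a black line. The medians are -0.59, -0.92, -0.31 and 0.56; in knockout 4 every point is above 0 and in knockout 2 every point is below it.

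The spread among libraries of 1 label was therefore large for these genes. Over knockout 2, 3 and 4 the median SD of the 40 genes was 0.75 on the log2 scale, beside 0.16 for all genes tested. Over the 2 wild type libraries it was 0.18, beside 0.29 for all genes. Between knockout 4 and knockout 2, a pair chosen after their values were seen, the median log2 difference was 1.47, or 2.77-fold, and 38 of the 40 genes were at least 2-fold higher in knockout 4, against 5.39% of all genes. Of the 40, Aurka was farthest apart at 3.73-fold and Psrc1 nearest at 1.49-fold. The spread was not confined to the 40 genes. At least 2-fold higher in knockout 4 were also 80.6% of 31 DNA replication genes and 66.3% of 83 other mitosis genes. The median SD over knockout 2, 3 and 4 was 0.65 in each of these lists. The summed smooth muscle and pericyte markers (10 of 10 detected, Acta2 and Tagln among them) ran the other way in the second set, with 76647 normalized counts in wild type 2, beside 131644, 103286 and 69173 in knockout 2, 3 and 4. In the first set this sum was 244559 in wild type 1 and 219694 in knockout 1, lower in knockout 1 as the mitotic median was. The endothelial sum was lowest in knockout 4, at 36586, beside 55525 in wild type 2 and 60203 and 51299 in knockout 2 and 3. It thus ran opposite to the mitotic median in knockout 2 and 4. In knockout 1 and 3 both were below the wild type of their set. The lymphatic endothelial sum (5 of 5 detected) was below the wild type of its set in all 4 libraries labelled knockout, at log2 differences of -0.61, -0.95, -1.23 and -1.51 in knockout 1 to 4. The mesothelial sum in the second set was 16682 in wild type 2 and 12101, 8550.0 and 16269 in knockout 2, 3 and 4. The part of these in the mitotic values was not tested.

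The 10 genes of entry into mitosis had 10 of 10 estimates below 0 in both fits, with a median of -0.30 with genotype alone and -0.39 with the set term, and none was called. Cdk1, the kinase that drives the cell into mitosis (chr10:69335146-69352938, minus strand), measured 2411 normalized counts in wild type 1, 2286 in wild type 2, then 1919, 1353, 1878 and 3119 in knockouts 1 to 4. Knockout 2 was the lowest and knockout 4 the highest, with both wild types between them; the set-term difference was -0.25 ± 0.34 (log2, ± SE, as for the differences below). Ccna2, cyclin A2, which partners CDKs in S phase and G2 (chr3:36564865-36572150, minus strand), measured 1411 normalized counts in wild type 1, 1688 in wild type 2, then 875, 846, 1421 and 2603 in knockouts 1 to 4. Knockout 1 and 2 were about equally low, and knockout 4 was 3.08 times knockout 2. Its exons share 12.5% of their length with Exosc9 on the opposite strand, and whether counting used the strand is not given. For Ccnb1, cyclin B1, the partner of Cdk1 in mitosis (chr13:100778650-100786570, minus strand), the values were 762 normalized counts in wild type 1, 911 in wild type 2, then 475, 483, 631 and 1334 in knockouts 1 to 4. Its set-term difference of -0.45 ± 0.43 was the lowest of this role. Ccnb1 has 5 near-identical copies in the annotation, 96.1 to 99.2% identical over 336 to 1294 bases. None of the copies had a count of its own here, but reads that match both Ccnb1 and a copy may have been lost.

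Among the others of this role, Ccnb2 (cyclin B2) ranged from 449 (knockout 2) to 1091 (knockout 4), and Plk1, the polo kinase of centrosome maturation and of several later steps, from 386 (knockout 2) to 1038 (knockout 4). Aurka, the kinase of the spindle poles, ranged from 369.6 (knockout 2) to 1379.8 (knockout 4), and had the largest fold between knockout 4 and knockout 2 of the 40. Foxm1, the transcription factor that drives many of these genes, ranged from 863 (knockout 1) to 1976 (knockout 4), and its set-term difference of -0.45 ± 0.35 was close to that of Ccnb1. Cdc25c, the phosphatase that activates Cdk1, was among the least abundant, from 111 (knockout 1) to 356 (knockout 4). Melk, a kinase of dividing cells, and Cdca3, which promotes destruction of the Cdk1 inhibitor Wee1, ran from 228 (knockout 2) to 713 (knockout 4) and from 407 (knockout 2) to 1167 (knockout 4). Of these 7 genes, 5 had their lowest value in knockout 2, and Foxm1 and Cdc25c in knockout 1; the highest value was in knockout 4 for all 7.

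The 5 genes of the spindle checkpoint and of anaphase had 5 of 5 estimates below 0, with a median of -0.32 with genotype alone and -0.38 with the set term. Bub1, a checkpoint kinase of the kinetochore (chr2:127801122-127831865, minus strand), measured 733 normalized counts in wild type 1, 869 in wild type 2, then 454, 401, 676 and 1358 in knockouts 1 to 4. Its values in knockout 2 and 4 differ 3.38-fold, the widest gap of this role, and both wild types lie between. Bub1b, the checkpoint protein BubR1 that restrains the anaphase-promoting complex (chr2:118598211-118641591, plus strand), measured 1187 normalized counts in wild type 1, 1411 in wild type 2, then 904, 825, 1184 and 1899 in knockouts 1 to 4, with a set-term difference of -0.28 ± 0.34. Ube2c, the ubiquitin-conjugating enzyme of that complex (chr2:164769898-164778822, plus strand), measured 1389 normalized counts in wild type 1, 1233 in wild type 2, then 945, 616, 853 and 1747 in knockouts 1 to 4, with a difference of -0.43 ± 0.43. Here knockout 4 was the highest and the 3 others labelled knockout were all below both wild types. Its exons share 22.8% of their length with Tnnc2 on the opposite strand. Ttk, the kinase that starts checkpoint signalling, ranged from 243 (knockout 2) to 775 (knockout 4), and Cdc20, the activator of the anaphase-promoting complex, from 500.0 (knockout 2) to 1309 (knockout 4). Between the wild types (wild type 1 minus wild type 2) Ttk differed by -0.69 on the log2 scale and Cdc20 by 0.41.

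The 9 genes of the centromere, the kinetochore and the chromosomal passenger complex had 9 of 9 estimates below 0 in both fits, with medians of -0.29 and -0.33. Cenpe, a kinetochore motor that brings chromosomes to the spindle equator (chr3:135212537-135273611, plus strand), measured 1683 normalized counts in wild type 1, 1607 in wild type 2, then 1105, 767, 1244 and 2323 in knockouts 1 to 4, with a set-term difference of -0.42 ± 0.45. Cenpf, a large protein of the outer kinetochore (chr1:189640606-189688086, minus strand), measured 940.1 normalized counts in wild type 1, 1174 in wild type 2, then 683, 606, 739.9 and 1797 in knockouts 1 to 4. Knockout 4 stood apart: the others labelled knockout lay between 605.9 and 739.9 and below both wild types. Nuf2, a subunit of the Ndc80 complex that grips microtubules (chr1:169497934-169531464, minus strand), measured 655 normalized counts in wild type 1, 847 in wild type 2, then 377, 359.5, 706 and 1337 in knockouts 1 to 4. Of the 40 genes it had the lowest set-term difference, -0.49 ± 0.53, and the widest gap between knockout 2 and wild type 2, -1.23 on the log2 scale. Spc25, a subunit of the same complex (chr2:69193895-69206194, minus strand), measured 672 normalized counts in wild type 1, 739 in wild type 2, then 558, 447, 719 and 1094 in knockouts 1 to 4, and its difference of -0.15 ± 0.36 was the nearest to 0 of this role. The 2 subunits thus stood at the ends of the role and their estimates lie closer together than the SE of either.

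Ndc80, the subunit that names the complex, ranged from 325 (knockout 1) to 1314 (knockout 4) and differed by -0.88 on the log2 scale between wild type 1 and wild type 2, wild type 1 being lower. Cenpa, the histone H3 variant of centromeres, ranged from 386 (knockout 2) to 805 (knockout 4) and had the lowest unadjusted p of the 40 in both fits, 0.17 and 0.21. Of the passenger complex, Aurkb (the kinase) ranged from 326 (knockout 2) to 734 (knockout 4), Birc5 (survivin) from 311 (knockout 2) to 966 (knockout 4) and Cdca8 (borealin) from 533 (knockout 1) to 1492 (knockout 4). Aurkb and Birc5 were the 2 genes of this role at or above wild type 2 in knockout 3, by 0.02 and 0.05 on the log2 scale.

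The 7 genes of spindle motors and microtubule proteins had 7 of 7 estimates below 0, with medians of -0.27 with genotype alone and -0.22 with the set term. Kif11, the motor that pushes the spindle poles apart (chr19:37376403-37421859, plus strand), measured 1060.5 normalized counts in wild type 1, 1562 in wild type 2, then 667, 682, 1181 and 2427 in knockouts 1 to 4. Its set-term difference of -0.46 ± 0.51 was the lowest of the role, with wild type 1 well below wild type 2. Tpx2, which activates Aurora A on the spindle (chr2:152847964-152895321, plus strand), measured 3429.6 normalized counts in wild type 1, 3502 in wild type 2, then 2228, 1805, 2631 and 4947 in knockouts 1 to 4, with a difference of -0.42 ± 0.41. Psrc1, a microtubule-binding protein of the spindle (chr3:108383839-108388231, plus strand), measured 3229.6 normalized counts in wild type 1, 2774 in wild type 2, then 3356, 2029, 2745 and 3024 in knockouts 1 to 4. It differed least of the 40 between knockout 2 and knockout 4. Knockout 1 was the highest library, above wild type 1 by 0.06 on the log2 scale, and the set-term difference was -0.05 ± 0.18. Gtse1, a microtubule-binding protein of G2 and mitosis (chr15:85859745-85876573, plus strand), differed between the sets, at 2773 normalized counts in wild type 1, 1203 in wild type 2, then 2271, 761, 1488 and 1685 in knockouts 1 to 4. Both libraries of the first set were above all 4 of the second. Kif2c, a microtubule-depolymerizing motor, ranged from 412 (knockout 2) to 1288 (knockout 4), Nusap1, a spindle microtubule bundler, from 442 (knockout 2) to 1121 (knockout 4) and Ckap2, a spindle-associated protein, from 972 (knockout 2) to 2315 (knockout 4).

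The 5 genes of the midzone and of cytokinesis had 5 of 5 estimates below 0, with medians of -0.29 and -0.30. Prc1, which bundles the midzone microtubules (chr7:80294450-80316259, plus strand), measured 2849.6 normalized counts in wild type 1, 3141 in wild type 2, then 1856, 1748, 2396 and 4644 in knockouts 1 to 4, with a set-term difference of -0.38 ± 0.40. Of its exons, 11.1% are shared with Rccd1 on the opposite strand. Kif23, the motor of the centralspindlin complex (chr9:61915905-61946774, minus strand), measured 912 normalized counts in wild type 1, 674 in wild type 2, then 546, 351, 495 and 976 in knockouts 1 to 4. With genotype alone its difference of -0.51 ± 0.41 was the lowest of the 40, and with the set term it was -0.47 ± 0.43. Anln, anillin, the scaffold of the contractile ring (chr9:22332012-22389188, minus strand), measured 6212 normalized counts in wild type 1, 5872 in wild type 2, then 6981, 2716, 3869 and 8073 in knockouts 1 to 4. Anln and Psrc1 were the 2 of the 40 genes above wild type 1 in knockout 1, Anln by 0.17 on the log2 scale, while the median of the 40 was -0.59. In the second set it was like the others, with knockout 2 -1.11 from wild type 2. Kif20a, a motor of the midzone, ranged from 1083 (knockout 2) to 2894 (knockout 4), but 29.3% of its exonic length is shared with Cdc23 on the opposite strand. Ect2, the exchange factor that activates RhoA at the cleavage site, ranged from 431 (knockout 2) to 1425 (knockout 4).

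The 4 genes of chromosome structure had a median of -0.05 with genotype alone, with 2 of 4 below 0, and -0.29 with the set term, with 4 of 4 below 0. Top2a, the topoisomerase that untangles sister chromatids (chr11:98992943-99024189, minus strand), measured 4224 normalized counts in wild type 1, 5999 in wild type 2, then 2654, 2873, 4878 and 8570.4 in knockouts 1 to 4, with a set-term difference of -0.44 ± 0.44. Knockout 1 was the lowest library and knockout 4 the highest. Mki67, the Ki-67 protein that coats mitotic chromosomes and marks cycling cells (chr7:135689784-135716361, minus strand), measured 3510.2 normalized counts in wild type 1, 3343 in wild type 2, then 2083, 1917, 3332 and 5119 in knockouts 1 to 4, with a difference of -0.34 ± 0.42. Knockout 3 was level with wild type 2, while knockout 1 and 2 were -0.75 and -0.80 on the log2 scale from the wild type of their set. Esco2, the acetyltransferase that establishes cohesion (chr14:65819038-65833994, minus strand), was scarce, with 132 normalized counts in wild type 1, 248 in wild type 2, then 113, 128, 268 and 417 in knockouts 1 to 4. Its difference was 0.15 ± 0.61 with genotype alone and -0.11 ± 0.49 with the set term; wild type 1 was -0.90 on the log2 scale from wild type 2. Hmgb2, a chromatin protein of dividing cells, ranged from 259 (knockout 1) to 1165 (knockout 4), and both libraries of the first set were below all 4 of the second. Hmgb2 has 5 near-identical copies in the annotation, 97.9 to 99.7% identical over 581 to 635 bases, and none of these had a count of its own here.

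**Figure D4:**
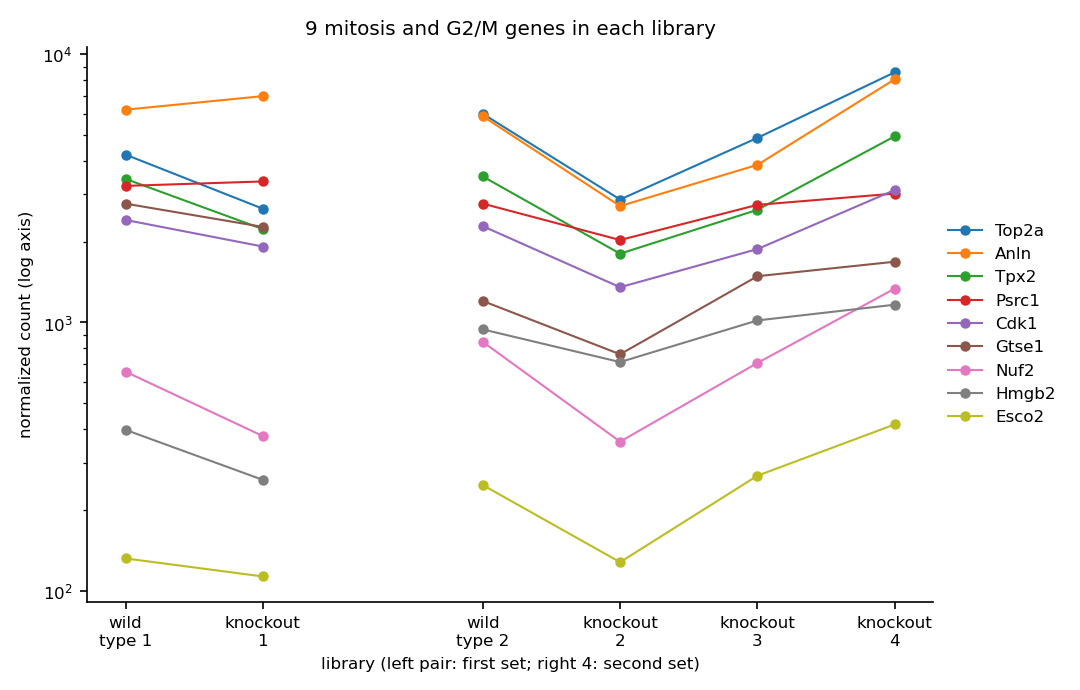
Normalized count (log axis) of 9 of the genes in each library, the first set on the left and the second on the right; lines join the points of 1 gene within a set and mark no order in time. Knockout 4 is the highest of the second set for all 9 and knockout 2 the lowest, while Psrc1 is nearly flat, Anln is not lower in knockout 1, Gtse1 is higher and Hmgb2 lower in the first set.

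Per kilobase of exon, Psrc1 had the highest mean level over the 6 libraries, 850.1 normalized counts, followed by Tpx2 with 661, Anln with 620.2 and Gtse1 with 619. Esco2 with 32.7 and Cdc25c with 38.7 were the lowest. The exonic length counts every annotated exon, so genes with many isoforms are understated on this scale. Among the 33 genes with a promoter, the median fold between knockout 4 and knockout 2 was 2.73 for the 26 with a CHR and 3.02 for the 7 without. Nuf2, Melk, Birc5 and Nusap1, with neither element, were 3.72-, 3.12-, 3.10- and 2.54-fold higher in knockout 4 than in knockout 2.

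Of 83 other tested genes of mitosis, none was called in either fit, and 73 of 83 estimates were below 0 with genotype alone and 79 of 83 with the set term. Their median log2 differences from the wild type of the set were -0.39, -0.75, -0.14 and 0.45 in knockout 1 to 4. Spindle and kinesin genes (17 of 17 below 0 with the set term) had -0.95 in knockout 2 and 0.53 in knockout 4, and 15 genes of the checkpoint and the anaphase-promoting complex (13 below 0) had -0.20 and 0.11. The genes with the largest set-term differences were Ska1, a kinetochore protein (-0.65 ± 0.71), Kif14, a cytokinesis motor (-0.55 ± 0.40), Fbxo5, the inhibitor of the anaphase-promoting complex before mitosis (-0.48 ± 0.52), Cenph of the inner kinetochore (-0.45 ± 0.55) and Kif18b, a microtubule motor (-0.44 ± 0.45). Ska1 ran from 45.6 (knockout 2) to 265 (knockout 4).

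DNA replication genes, 31 tested, held no called gene. Their medians were -0.35, -0.86, 0.06 and 0.41 in knockout 1 to 4, with 27 of 31 estimates below 0 with genotype alone and 31 of 31 with the set term. In knockout 3 the replication median was above 0 while that of the mitotic genes was -0.31, a difference that was not tested. Prim1, a primase subunit (-0.39 ± 0.46), Tk1, thymidine kinase (-0.39 ± 0.43), Pole, the leading-strand polymerase (-0.36 ± 0.52), Cdc6, a licensing factor (-0.35 ± 0.54), and Mcm10, an initiation factor (-0.35 ± 0.60), had the largest set-term differences.

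**Figure D5:**
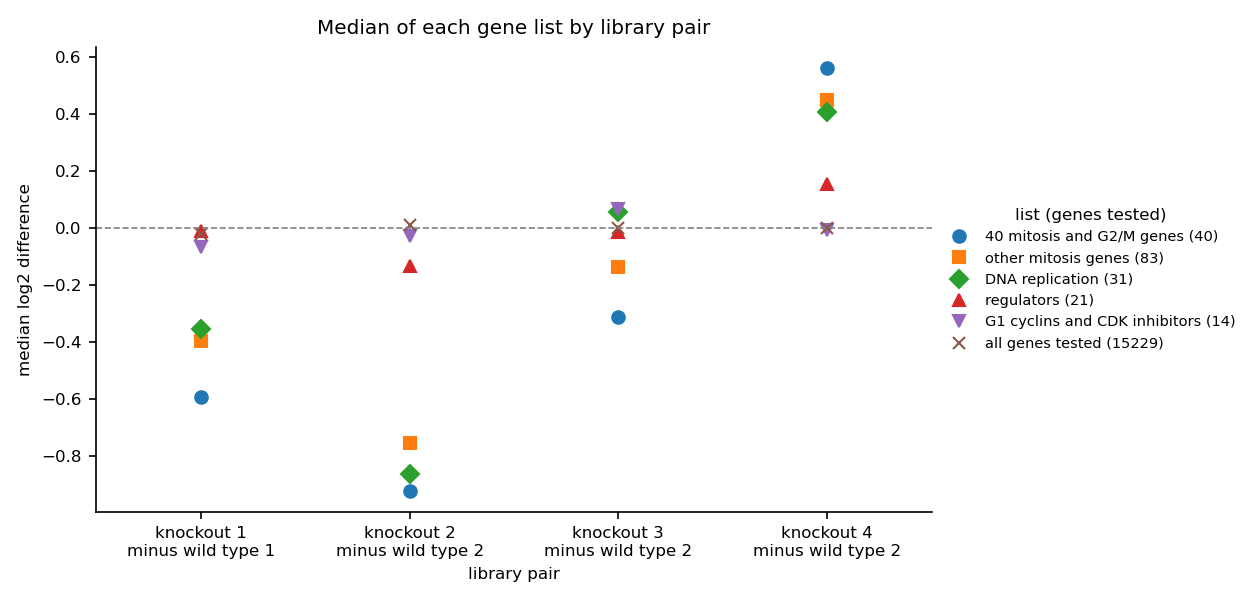
Median log2 difference of each gene list between a library labelled knockout and the wild type library of its set. Of the 6 lists plotted, the 40 mitosis and G2/M genes have the lowest median in knockout 1, 2 and 3 and the highest in knockout 4; all genes tested and the G1 list stay near 0 in every comparison.

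Regulators of the mitotic programme, 21 tested, had no gene called and medians of -0.01, -0.13, -0.01 and 0.15 in knockout 1 to 4. Mybl2, the B-Myb subunit that joins MuvB in S phase, measured 245 normalized counts in wild type 1, 393 in wild type 2, then 168, 172, 401 and 551 in knockouts 1 to 4. Knockout 1 and 2 were the lowest and knockout 4 the highest, as for most of the 40 genes, but knockout 3 was above both wild types. Lin9, a core MuvB subunit, measured 309 normalized counts in wild type 1, 468 in wild type 2, then 243, 297, 378 and 581 in knockouts 1 to 4, and E2f8, a repressor of the E2F family, 486 normalized counts in wild type 1, 372 in wild type 2, then 232, 193, 466 and 497 in knockouts 1 to 4. E2f4, a repressor E2F of quiescent cells, was nearly flat, with 2333 normalized counts in wild type 1, 2593 in wild type 2, then 2357, 2876, 2571 and 2369.9 in knockouts 1 to 4. E2f1, an activator of S phase genes, measured 1499 normalized counts in wild type 1, 1154 in wild type 2, then 1572, 832, 1144 and 1241 in knockouts 1 to 4, and Rbl1, the pocket protein p107, 594 normalized counts in wild type 1, 816 in wild type 2, then 452, 500.0, 757 and 1090.1 in knockouts 1 to 4. Lin52, another MuvB subunit, was higher than the wild type of its set in all 4 libraries labelled knockout, with 285 normalized counts in wild type 1, 319 in wild type 2, then 391, 401, 406 and 379.5 in knockouts 1 to 4 and a set-term difference of 0.37 ± 0.11; its unadjusted p was 0.019 and its adjusted p 0.999. The other genes of largest difference were E2f2 (0.62 ± 0.41) and E2f7 (-0.30 ± 0.41).

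The 14 genes of G1 cyclins and CDK inhibitors had medians of -0.06, -0.03, 0.07 and -0.01 in knockout 1 to 4, with none called. Cdkn1a, the inhibitor p21 that p53 induces, measured 18426 normalized counts in wild type 1, 13394 in wild type 2, then 18232, 14917, 17248 and 12996 in knockouts 1 to 4, and in the second set it was highest in knockout 3 and lowest in knockout 4. Ccnd1, cyclin D1, measured 47299 normalized counts in wild type 1, 12782 in wild type 2, then 34636, 12419.9, 13584 and 12519 in knockouts 1 to 4, and Cdkn2a, the locus of p16 and p19Arf, 4585 normalized counts in wild type 1, 717 in wild type 2, then 4385, 327, 473 and 615 in knockouts 1 to 4; both were higher in the first set. Cdkn2b, the inhibitor p15, measured 3238 normalized counts in wild type 1, 961 in wild type 2, then 3015, 658, 677 and 733 in knockouts 1 to 4 and Cdkn1b, the inhibitor p27, 870.0 normalized counts in wild type 1, 2477 in wild type 2, then 832, 3014, 2697 and 2629 in knockouts 1 to 4, the latter lower in the first set. Ccne1, cyclin E1, measured 1126 normalized counts in wild type 1, 1059 in wild type 2, then 1066, 674, 1047 and 1336 in knockouts 1 to 4, with its lowest value in knockout 2 and its highest in knockout 4. Cdkn1c, the inhibitor p57, went the other way in the second set, with 112 normalized counts in wild type 1, 273 in wild type 2, then 211, 649, 402 and 209 in knockouts 1 to 4. Its set-term difference was 0.65 ± 0.47.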

How the data were processed

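The deposited table holds a normalized count signal per gene and library, that is, read counts the authors scaled by 1 size factor for each library (DESeq2 in the series design text). The submitters' processing notes name Trimmomatic 0.36 for trimming, STAR 2.6.0c for alignment, the build GRCm38.p6, and featureCounts from Subread 1.6.1 for counting. The design text of the series instead lists Trimmomatic 0.32, STAR 2.4.2a, HTSeq, GENCODE M17 and DESeq2 1.10.1; the sources used here do not say which of them made the table or whether strand was used. Reads were single-end and 100 nt long.

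Values were whole multiples of each library's smallest value, so whole reads were recovered for 100% of values, within 1e-06 of a read, at 32699024 to 45613685 per library. For a gene with a mean of 10, the counting error is about 31.6% of the mean. No pair of libraries of 1 genotype agreed within sampling noise (chi-square per gene 28.4 to 438), so all 6 were kept.

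Differences were tested two-sided with limma 3.58.1 in R 4.3.3, using lmFit and a mean-trended eBayes on log2 of the normalized count plus a pseudocount of 1, which understates changes of low genes. Genotype was the sole term, over 15229 genes whose mean reached 10 normalized counts, with p-values adjusted by Benjamini-Hochberg and called under 0.05. A fit that adds the library set, DESeq2 1.42.0 and the edgeR 4.0.16 quasi-likelihood test, both on recovered reads, other pseudocounts, filters and scaling, a replicate block and each library left out were alternatives. Fits were tested on simulated data. The members, gene lists and library sets were chosen with earlier results of these data known.

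Values in all libraries are given for the 2 most abundant genes of each role and for those with the lowest and highest set-term difference; Gtse1 was added after its values were seen. Of the other lists, up to 5 genes with the largest set-term difference and a mean of at least 50 are named, with a fixed group of regulators. Gene positions and exonic lengths are from GENCODE M21 (GRCm38), promoters from RefSeq (GRCm38.p6).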

Additional observations from a re-analysis of the deposited data

Results flagged for a closer look

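In the group of 4 libraries labelled knockout, the highest or lowest library was compared with its nearest neighbour, as a share of the group's whole range, against Dixon's 95% critical value. This was done for 19 of the 40 mitotic genes and for Zmpste24. Chance passes that value in about 1 of 20 groups whose libraries are alike. The 4 libraries span both library sets, with knockout 1 alone in the first, so that rate does not hold for genes that differ between the sets. Cenpf passed it, with 1797 normalized counts in knockout 4 and a gap of 0.887 of the range. Zmpste24 passed it with 5079 normalized counts in knockout 1 and a gap of 0.889 of the range; wild type 1, of the same set, was also the higher wild type, at 5503.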

How the results depend on the processing

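None of the 40 mitotic genes was called in any of the 23 alternatives. The count of called genes over the whole table, 1 with genotype alone, was 2 with a pseudocount of 5, 7 with DESeq2, 2 with edgeR and 50 with DESeq2 when the library set was a term, and 0 in the second set alone. Leaving out 1 library gave 0 to 2 genes, and 0 with the set term and without knockout 3. The median of the 40 genes stayed below 0 in every alternative, from -0.73 to -0.07. Fits with the set term and TMM scaling, or without knockout 2, 3 or 4, were chosen after seeing the data.

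Single genes changed sign, none being called on either side; the causes were not tested. Among them Kif11, Top2a and Anln were not near 0 with genotype alone, at -0.27, -0.25 and -0.29. Esco2, 0.15 with genotype alone, was -0.11 with the set term, -0.00018 and -0.010 with edgeR and DESeq2 with it, -0.095 with TMM scaling and it, -0.029 in the second set alone, and -0.15 and -0.33 with the set term and without knockout 3 and 4. Spc25 was 0.0083 with edgeR. With the set term and without knockout 2, Spc25 was 0.035, Psrc1 0.055 and Anln 0.031. Leaving out 1 library with genotype alone gave -0.30 (without wild type 1) to 0.60 (without wild type 2) for Esco2, -0.32 (without knockout 4) to 0.11 (without knockout 2) for Spc25, -0.66 (without knockout 4) to 0.011 (without wild type 2) for Kif11, -0.24 (without wild type 2) to 0.018 (without knockout 2) for Psrc1 and -0.59 (without knockout 4) to 0.00052 (without wild type 2) for Top2a.

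The title numbers pair 2 libraries of each genotype. With this replicate block the median was -0.73, 40 of 40 genes were below 0, 34 of 40 had an unadjusted p under 0.05 against 5.13% of all genes, and 0 genes of the whole table were called; Esco2 was -0.59. Knockout 3 and 4 have no partner and add nothing to that estimate. It thus leaves out knockout 4, where all 40 genes were above wild type 2. It rests on knockout 1 and 2, and 1 of these was the lowest library for each of the 40 genes. The count of small p is therefore not an independent test. Deviations from the group means correlated at 0.84 for number 1 and 0.56 for number 2, but wild type 2 also correlated at 0.67 with knockout 3 and 0.53 with knockout 4, so the numbers are not shown to pair samples.

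Counting error is largest for scarce genes such as Esco2 and Cdc25c. Their SD over knockout 2, 3 and 4 was 0.86 and 0.82 on the log2 scale. Among abundant genes it was 0.80 for Anln, 0.79 for Top2a, 0.71 for Mki67, 0.73 for Tpx2 and 0.30 for Psrc1. The part of counting error in this spread was not tested. With 2 wild type libraries in different sets, the set-term comparison rests on 1 wild type per set.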
